A study of Cavia porcellus with 18 samples.

Results

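The coverage of reduced representation bisulfite sequencing (RRBS) in guinea pig (Cavia porcellus) hippocampus is described here by the genome positions it read. All 5053261 listed C positions were taken, of 5053261 in all, with a sum of 131062338 reads. The tissue came from 3 wild type males of 12 weeks, and no group received a treatment. RRBS had 6 bisulfite libraries from the 3 animals, sequenced at read lengths of 50 and 100 bases. A further 3 libraries of the same animals, digested but not treated with bisulfite, are labelled as controls, and their labels name the same coverage list. Whether their reads are counted in it is not stated. The list gives 1 read number per position for all animals together, so the depth of single libraries is unknown, no spread between animals could be computed and no test over samples could be made. It holds no methylation level. H3K4me1 ChIP-seq and ChIP-bisulfite and RNA polymerase II ChIP-seq of the same animals served for comparison. Hippocampal marker genes could not be checked, since none of the 19244 gene identifiers in the deposited tables matched a symbol.

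RRBS cuts DNA with restriction enzymes, here MspI and ApeKI, and sequences the short fragments after bisulfite has converted unmethylated cytosines. MspI recognises a site with a CG in its centre, so the assay favours CG-rich DNA. In vertebrate genomes most CG sites are methylated and scarce, while CpG islands, short stretches of dense CG sites that often lie over promoters, are mostly unmethylated. H3K4me1 marks enhancers and the flanks of promoters, and RNA polymerase II phosphorylated on serine 5 (Pol II PS5) marks sites of initiation.

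Positions came in pairs and in short groups. Of 5050403 distances between neighbouring positions on a scaffold, 28.2% were 1 base, and the median was 32 bases. A CG reads as CG on both strands, so its C positions on the 2 strands lie 1 base apart. Unbroken runs of adjacent positions had an even length in 99.9% of 1375504 cases, with 1351042 runs of 2 and 22476 runs of 4 against 992 runs of 3. Paired positions made up 55.4% of the list, and the other 44.6% had no listed neighbour 1 base away. Beyond pairs, distances in log bins stood on a broad plateau of 113455 to 159688 per bin from 13 to 100 bases. They fell to 85775 at 159 to 199 bases and rose to a second maximum of 130609 at 795 to 1000 bases. Distances over 100 bases made up 36.4% of all.

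**Figure D1:**
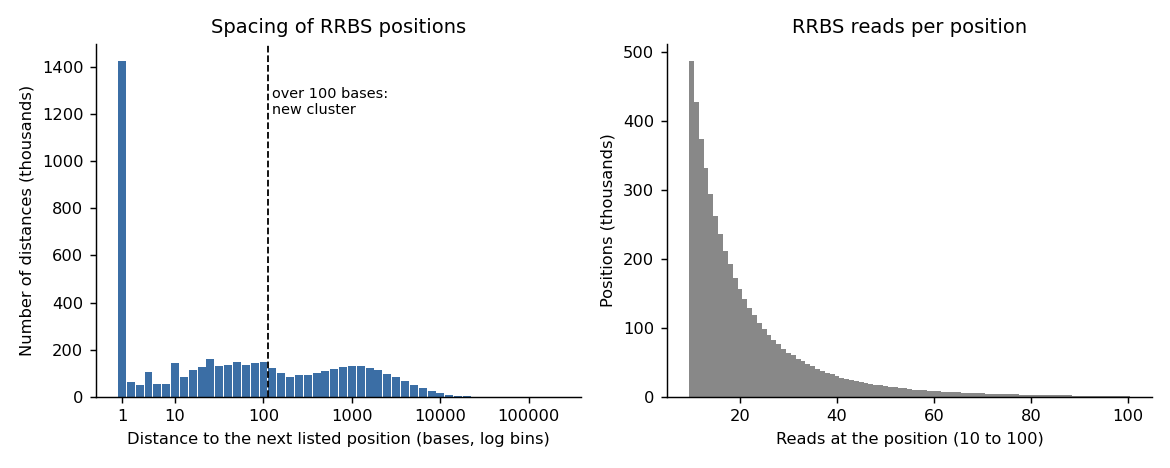
Left, the number of distances (in units of 1000) between neighbouring RRBS positions, in log bins of bases; right, the number of positions (same units) at each read number from 10 to 100. The 1-base distance stands far above all bins, the line marks the limit of 100 bases used to form clusters, and read numbers begin at their maximum of positions, 487538 at 10 reads.

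Depth per position was low and even for most positions, with a few extreme ones. The lowest read number was 10, the median 17, the upper quartile 26 and the 99th percentile 90. Positions with 10 to 14 reads made up 37.9% of the list. At the other end, 1881 positions with at least 1000 reads, 0.0372% of the list, held 12.7% of all reads, up to 366842 at 1 position. If all reads were bisulfite reads, a position at 50% methylation with 10 reads would have an exact (Clopper-Pearson) 95% binomial interval of 18.7% to 81.3%, and one with 18 reads an interval of 26.02% to 73.98%. These intervals take reads as independent, which could not be checked, because the reads carry no molecular identifiers. The intervals below are over clusters and cover counting error only.

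Neighbouring positions often had equal read numbers. Among pairs with under 100 reads at both positions, 50.1% of those 2 to 10 bases apart had exactly the same read number, as did 28.05% of those 11 to 50 bases apart and 15.5% of those 51 to 100 bases apart. Positions 1 base apart had the same read number in only 4.45% of 1402078 pairs. Spearman's rho of the read numbers was 0.711 at 2 to 10 bases, 0.490 at 11 to 50 bases, 0.350 at 51 to 100 bases and 0.367 at 1 base. These are descriptions of points from the same libraries, and neighbouring read numbers were not independent values.

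RRBS listed a part of the C positions in each region. By the authors' table of averages, over 99978 H3K4me1 peaks with a number of C positions in the genome, RRBS read 14.4% of these positions, with a median of 15.5% per peak and quartiles of 10% and 22.5%. The name of that number does not say whether it counts every C or only those of CG sites. It ranged from 1.22 to 257 per 1000 bases of peak. The share was 17.6% in the lowest decile of peaks by C positions per length, up to 11.002 per 1000 bases. It lay between 14.01% and 16.9% in the next 8 deciles and was 10.02% in the highest, from 53.7 per 1000 bases. If only peaks with at least 1 RRBS position entered these averages, the share would be raised in peaks with few C positions. This was not tested. Of all 327682 H3K4me1 peaks, 69.04% held a listed position, against 22.5% of 67423 Pol II PS5 peaks. These shares were not corrected for peak width, and H3K4me1 peaks were wider on average. They covered 32.01% of the scaffold span and held 48.9% of all positions, while Pol II PS5 peaks covered 0.825% and held 1.45%. The shares of peaks therefore do not show which kind of peak RRBS read more densely per base.

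Across the 65 scaffolds of at least 10 Mb, which held 71.4% of the positions on 73.97% of the total span, there were 360.0 to 3948 positions per Mb with a median of 1703. The lowest value was on scaffold_26 and the highest on scaffold_62. Of all positions, 48.9% lay in H3K4me1 peaks, which covered 32.01% of the span. Pol II PS5 peaks held 1.45% on 0.825% of the span, and windows of 1000 bases to either side of a listed transcription start site (TSS) held 3.71% on 1.41%. Median depth hardly differed between these places, with 17 reads inside and outside H3K4me1 peaks, 18 inside Pol II PS5 peaks and 16 in the TSS windows. These medians are of positions with at least 10 reads and do not show where the extreme read numbers lay.

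Positions at most 100 bases from the next were joined into 1839861 clusters. Single positions made up 36.6% of the clusters and clusters of 2 to 4 positions 48.98%. Clusters with 20 or more positions, called dense below, numbered 5101. They were 0.277% of the clusters and held 128332 positions, 2.54% of the list, and 11.5% of the reads. With both positions of a pair counted once, clusters were formed anew and dense was again taken from 20 counted positions, a stricter limit. Such clusters held 0.559% of the positions so counted. The 5101 dense clusters lay on 381 scaffolds. Their positions were paired in 74.8% of cases against 54.9% in sparse clusters, those with fewer than 20 positions. The definitions set part of this difference. The 673534 clusters of a single position cannot hold a pair, and each pair adds 2 to the count that makes a cluster dense.

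The word dense stands for the count of positions and not for their spacing. Dense clusters had a median of 23 positions, a maximum of 172 and a median width of 277 bases. Over their summed width they held 8.54 positions per 100 bases, against 6.97 in clusters of 10 to 19 positions and 6.07 in those of 5 to 9. Clusters of 2 to 4 positions had 8.41. Sparse clusters together had 8.37, with single positions included, each counted as 1 base wide. Only 38.7% of the dense clusters reached 10 positions per 100 bases. On both sides of the threshold values were close. The 956 clusters of 20 positions lay in H3K4me1 peaks in 59.1% of cases, in Pol II PS5 peaks in 5.75% and near a TSS in 14.2%, and the 1116 clusters of 19 positions in 57.5%, 5.20% and 13.8%.

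Dense clusters lay in H3K4me1 peaks more often than sparse ones. A cluster was counted as inside when its midpoint was in the peak, so that a long cluster is no larger target. This held for 3209 of 5101 dense clusters (62.9%, 95% interval 61.6 to 64.2), for 45.1% of 1834760 sparse clusters (45.05 to 45.2) and for 45.2% of all clusters. The share was higher in each larger size class, from 41.8% of single positions to 56.3% of clusters with 10 to 19 positions and 78.5% (66.5 to 87.7) of the 65 clusters with 50 or more. The intervals take clusters as independent, which neighbouring clusters are not. Over the 69 scaffolds of at least 1 Mb with 20 or more dense clusters, the dense share exceeded the sparse share by a mean of 15.7 percentage points (SD 13.5 over scaffolds). It was higher on 61 of them, and scaffold_111 had the lowest difference, -17.8 points.

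The difference was smaller at equal width. Dense clusters over 100 and up to 200 bases wide were in H3K4me1 peaks in 68.1% of 1256 cases (65.4 to 70.6) and sparse clusters of that width in 53.3%. Over 200 and up to 300 bases the shares were 59.99% (57.5 to 62.4) and 55.2%, and over 300 and up to 500 bases 61.7% (59.4 to 63.9) and 58.4% (57.02 to 59.8). In the last of these width classes the intervals overlapped slightly. Sparse clusters of all widths had a median width of 2 bases. Over 100 and up to 300 bases the difference was 10.04 points, against 17.8 points over all widths.

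**Figure D2:**
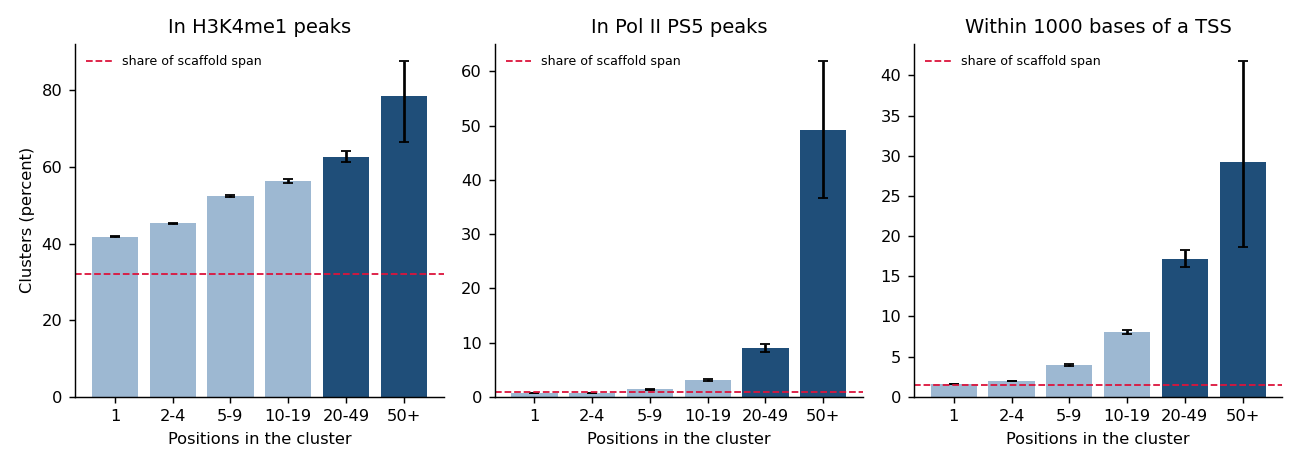
Percent of clusters with the midpoint in an H3K4me1 peak, in a Pol II PS5 peak or within 1000 bases of a listed TSS, by number of positions in the cluster, with exact 95% binomial intervals as bars. Dark columns are dense clusters, the dashed line is the percent of the scaffold span that the peaks or windows cover, and every share is highest in the class of 50 or more.

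Dense clusters were close to a TSS in 885 cases (17.3%, 16.3 to 18.4), against 2.21% of sparse clusters (2.19 to 2.23). Only the 19847 TSSs of the authors' CG site table were known, and that table lists genes with a CG site measured in both bisulfite assays, so both shares are lower limits. All of these sites lie in H3K4me1 peaks and have RRBS reads, so the way the TSS list was made sets in part how often an H3K4me1 peak or a listed position is found near a TSS. On the 69 scaffolds the dense share was higher by a mean of 15.9 points (SD 9.80), and it was higher on 66 of them. At equal width the gap remained, with 27.1% (24.7 to 29.7) against 4.72% over 100 and up to 200 bases and 13.2% (11.6 to 14.8) against 5.10% over 300 and up to 500 bases. The difference of 15.1 points was 6.93 points with dense taken from 10 positions and 23.9 points from 40. For the clusters in H3K4me1 peaks of the table of averages, the authors' distance of the peak from its nearest TSS was at most 1000 bases for 22.2% of 2043 dense clusters (20.4 to 24.04) and for 5.09% of sparse ones. By midpoint, 24.8% and 4.70% of these same clusters were near a listed TSS.

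The share of clusters that were dense fell off within a short distance of the TSS. It was 2.99% (2.76 to 3.23) within 500 bases, 1.25% from 500 to 1000 bases, 0.659% from 1000 to 2000 bases, 0.410% from 5000 to 10000 bases and 0.107% beyond 100000 bases. Among the 64242 clusters on scaffolds with no listed TSS it was 0.419% (0.370 to 0.472). Listed positions per TSS in windows of 200 bases peaked just downstream of the TSS at 1.28, against 0.449 in the window from 5000 to 4800 bases upstream. Of the positions in the 200 bases upstream of a TSS, 18.6% were in dense clusters. Median depth was 16 or 17 reads in every window.

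**Figure D3:**
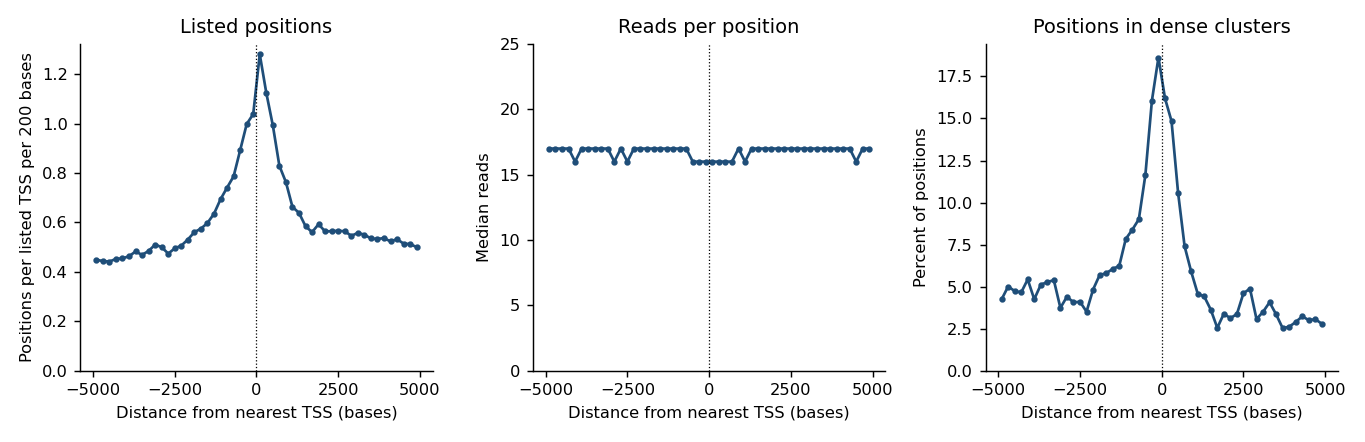
Listed RRBS positions per TSS, median reads per position and the percent of positions in dense clusters, in windows of 200 bases from 5000 bases upstream (negative) to 5000 bases downstream of the nearest listed TSS. Positions and the dense share peak at the TSS, while median depth stays at 16 or 17 reads.

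Most dense clusters were nevertheless away from known start sites. Here and below, this includes clusters on scaffolds with no listed TSS, 5.27% of dense and 3.49% of sparse ones. In H3K4me1 peaks and with no listed TSS within 1000 bases lay 2452 dense clusters (48.07%, 46.7 to 49.5), and 43.5% of sparse ones. Another 1721 (33.7%, 32.4 to 35.1) lay in no H3K4me1 peak, in no Pol II PS5 peak and near no listed TSS, against 54.1% of sparse clusters. The H3K4me1 shares differed by distance as well. Near a TSS 85.5% of dense clusters (83.04 to 87.8) and 73.4% of sparse ones (73.01 to 73.9) were in H3K4me1 peaks, and elsewhere 58.2% (56.7 to 59.7) and 44.5%. Of the 19847 TSSs, 921 (4.64%) had a dense cluster within 1000 bases.

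Pol II PS5 peaks held 483 dense clusters (9.47%, 8.68 to 10.3) and 0.831% of sparse ones (0.818 to 0.844), against 0.855% of all clusters. The share was 3.04% for clusters of 10 to 19 positions, 8.96% for 20 to 49 and 49.2% (36.6 to 61.9) for 50 or more. The class of 50 or more held 2.05% of all reads on 0.0877% of the positions. Its share without very deep clusters was not computed. Near a TSS 20.7% of dense clusters (18.1 to 23.5) and 4.70% of sparse ones were in a Pol II PS5 peak, and farther away 7.12% (6.36 to 7.93) and 0.744%. In TSS windows outside H3K4me1 peaks it was 18.75% of 128 dense clusters (12.4 to 26.6) and 2.02% of sparse ones. The scaffold values had a mean difference of 7.38 points (SD 5.78), with the dense share higher on 57 of 69 scaffolds. The Pol II difference depended on the definition of dense, from 2.88 points with 10 positions or more to 31.4 points with 40 or more, against 8.64 points. It was 24.8 points over positions with at least 20 reads, 16.1 points with pairs counted once and 5.02 points with gaps of up to 200 bases.

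A small set of very deep dense clusters stood apart. In 95 of them the median read number per position was over 100. They held 9.07% of all RRBS reads on 0.0757% of the positions, and their scaffolds had a median span of 5.68 kb. All 95 lay in H3K4me1 peaks (96.2 to 100) and 84 in Pol II PS5 peaks (88.4%, 80.2 to 94.1), while 12 were near a listed TSS. Without them, dense clusters were in H3K4me1 peaks in 62.2% of cases, in Pol II PS5 peaks in 7.97% and near a TSS in 17.4%. The remaining 5006 dense clusters held 2.47% of the reads on 2.46% of the positions. Sparse clusters on scaffolds under 10 kb were in Pol II PS5 peaks in 20.5% of cases and in H3K4me1 peaks in 57.0%. On scaffolds of at least 10 Mb these shares of sparse clusters were 0.637% and 44.6%.

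The deepest was at scaffold_219 from 494317 to 494735, with 28 positions of 1291 to 227652 reads and a median of 41239.5. Next was scaffold_351 from 44230 to 44592, with a median of 18933 reads over 26 positions. The 3 that followed, on scaffold_71, scaffold_2849 and scaffold_1653, had medians of 8055, 5206.5 and 2514.5 reads. All 5 were in an H3K4me1 peak and in a Pol II PS5 peak. At the low end, 32 dense clusters had a median of 10 reads, the minimum of the list. Of these 24 (75%) were in an H3K4me1 peak, 3 (9.38%) in a Pol II PS5 peak and 9 (28.1%) near a listed TSS. Over all dense clusters the shares were 62.9%, 9.47% and 17.3%. The 5 with the most positions among these 32, on scaffold_0 (2 clusters), scaffold_41, scaffold_16 and scaffold_18, had 26 to 30.

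**Figure D4:**
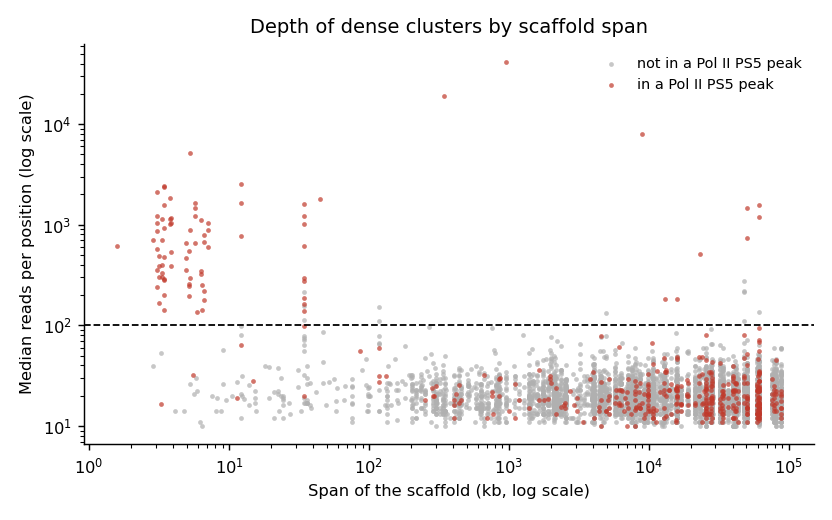
Median reads per position of each of the 5101 dense clusters (log scale) against the span of its scaffold in kb (log scale), with clusters in a Pol II PS5 peak in red and a line at 100 reads. Above the line most of the 95 clusters are red and many are on scaffolds under 10 kb, and below it most clusters are grey at all spans.

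CG sites in dense clusters were less methylated than those in sparse ones. The levels are those of the 167387 sites that the authors list as measured by RRBS and by ChIP-bisulfite. All of them were found in the coverage list, and levels did not enter the choice of clusters. The mean RRBS level was 24.3% over 7584 sites in 1164 dense clusters, with a median of 6%, and 55.3% over 159803 sites in sparse clusters, with a median of 62%. On the 75 scaffolds with at least 20 sites of each kind, the mean was 24.03% (SD 16.4 over scaffolds) and 53.6% (SD 7.47), and the dense level was lower by a mean difference of -29.6 points (SD 16.2). The dense level was higher on 4 scaffolds, which were scaffold_115, scaffold_223, scaffold_347 and scaffold_537. These sites lie in H3K4me1 peaks only. They were 9.27% of the positions that dense clusters had in H3K4me1 peaks and 6.69% of those of sparse clusters.

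The level was lower with each size class up to 49 positions, both near and away from start sites. Away from a TSS the mean fell in steps from 63.6% at single positions to 62.4%, 57.0%, 46.7% and 29.7% in clusters of 2 to 4, 5 to 9, 10 to 19 and 20 to 49 positions. Near a TSS the same classes had 47.5%, 41.6%, 28.9%, 16.7% and 13.0%. A level of 20% or less was listed for 64.3% of dense and 25.4% of sparse sites, and one of 80% or more for 12.1% and 35.7%. ChIP-bisulfite, a separate assay of H3K4me1-bound DNA, gave mean levels of 18.9% in dense and 46.3% in sparse clusters. Median depth differed little between these sites, with 21 reads in dense and 17 in sparse clusters.

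Clusters with 50 or more positions had a higher level than the class below, at 27.6% over 1031 sites and a median of 80 reads. It was 23.5% over 849 sites near a TSS and 46.5% over 182 sites away from one. Of these sites 842 lay in clusters of scaffold_927 and scaffold_13 and had a mean of 27.03%, and the other 189 had 29.9%. Without the clusters over 100 reads at the median, sites in dense clusters had a mean of 23.3%. The 805 sites in such deep clusters had 32.8%. Within Pol II PS5 peaks the levels of dense and sparse clusters were closer, at 19.9% over 1120 sites and 25.01% over 2731 sites, against 25.1% and 55.8% outside. The order was the other way in the means over scaffolds with at least 20 sites, at 28.4% (SD 21.1, 8 scaffolds) in dense and 24.4% (SD 11.7, 48 scaffolds) in sparse clusters within Pol II PS5 peaks.

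**Figure D5:**
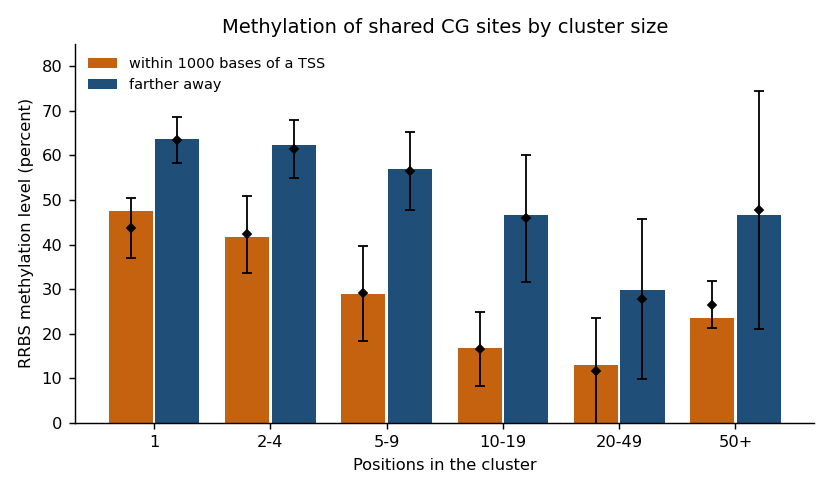
Mean RRBS methylation level (percent) of shared CG sites by number of positions in the cluster, within 1000 bases of a listed TSS (orange) and farther away (blue). Columns are means over sites, and black diamonds with bars are the mean and SD over scaffolds with at least 20 sites; levels fall up to the class of 20 to 49 in both groups, and the class of 50 or more rests on 3 scaffolds each. The lowest error bar is cut at 0.

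Single dense clusters with known levels were mostly at the low end of the scale. At least 5 sites of known level were found in 575 of 5101 dense clusters. All 575 lay in H3K4me1 peaks and 36.2% near a TSS, against 62.9% and 17.3% of all dense clusters. The cluster means of the 575 had a median of 5.55%, with quartiles of 0.8% and 39.5%. A mean of 20% or less was found in 380 of them (66.1%), of exactly 0% in 118, and of 80% or more in 43. The median was 2.18% in the 208 clusters near a TSS and 11% in the 367 others. Means over 50% occurred in 129 clusters. Of these 18 (13.95%) were near a TSS and 7 (5.43%) in a Pol II PS5 peak, against 36.2% and 8.87% of all 575.

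The 5 clusters with the most sites among the 118 at 0% included one at scaffold_13 from 36180460 to 36180722, 1614 bases from the TSS of ENSCPOG00000003276. All 16 of its sites were at 0% in RRBS, and its 27 positions had 13 to 23 reads. At scaffold_95 from 3633071 to 3633180, 4 bases from the TSS of ENSCPOG00000015563, all 14 sites were at 0% as well. The other 3, on scaffold_17 from 17283645, on scaffold_70 from 8667089 and on scaffold_18 from 39190439, had 14 or 15 sites at 0%. ChIP-bisulfite averaged 0.2% to 3.69% in these 5 clusters, and the 5 had 21 to 37 positions in widths of 95 to 263 bases.

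At the methylated end, 5 sites of a cluster at scaffold_175 from 36642 to 36753 were at 100% in both assays, 3961 bases from the TSS of ENSCPOG00000019987. Its 25 positions had 10 to 30 reads. A cluster at scaffold_101 from 1948133 to 1948395 was 409 bases from the TSS of ENSCPOG00000024748 and had a mean of 95.4% (SD 2.19 over 5 sites) with 100% in ChIP-bisulfite. The other 3, on scaffold_15 from 37090344, scaffold_56 from 608270 and scaffold_82 from 7098522, had means of 96.8%, 96.6% and 95.2% over 5 or 6 sites, with ChIP-bisulfite at 91.4%, 72.8% and 100%. None of these 10 clusters was in a Pol II PS5 peak. Of all 118 clusters at 0%, 11 (9.32%) were in one, as was 1 of the 43 at 80% or more.

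Among the 8 clusters with the most positions, 3 were on scaffold_927, a scaffold of 34.5 kb, from 4941 to 5702, from 6868 to 7402 and from 8721 to 9329, with 142, 172 and 130 positions. Their midpoints were 57, 50 and 833 bases from a listed TSS, and their sites averaged 12.97%, 30.6% and 13.2% in RRBS. The cluster at scaffold_13 from 48355556 to 48357108 had 145 positions over 1553 bases, was in a Pol II PS5 peak and averaged 32.1% (SD 35.4 over 141 sites). At scaffold_53 from 11938437 to 11939065 lay 110 positions with 10 to 56 reads, 2538 bases from a TSS, with a mean of 26.7% over 28 sites. The other 3, on scaffold_2876, scaffold_2081 and scaffold_2372, had 97 to 125 positions and medians of 194 to 597 reads on scaffolds of 5.16 to 7.10 kb with no listed TSS.

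Large clusters outside H3K4me1 peaks had ordinary depth. The 5 with the most positions had 56 to 58 positions and medians of 14 to 24.5 reads. On scaffold_5 from 6533943 to 6534400, on scaffold_17 from 26291937 to 26292331 and on scaffold_43 from 12541186 to 12541603 they were 136, 346 and 138 bases from a listed TSS, and the first of these was in a Pol II PS5 peak. The others, on scaffold_104 from 3731669 to 3732317 and on scaffold_422 from 229031 to 229535, were 23672 and 185733 bases from one. The 5 largest clusters in an H3K4me1 peak and far from a listed TSS include those on scaffold_2876, scaffold_2081 and scaffold_2372. All 5 were in Pol II PS5 peaks, on scaffolds of 2.87 to 12.2 kb with no listed TSS, and their medians were 194 to 771 reads.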

How the data were processed

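RRBS libraries were analysed from the authors' deposited coverage list, in which column 4 holds whole read counts per C position, at least 10 at every listed position and pooled over animals. Per the submitters' processing notes, BSMAP 2.74, SAMtools 1.1 and methylKit were used for RRBS, with no role or order given. No source used here names the genome build, so positions are printed as the files give them. Deposited H3K4me1 and Pol II PS5 peaks carry the authors' score, used only to choose higher-scoring peaks as an alternative. Methylation levels were deposited as whole percent per CG site, per the file headers. The deposited table of averages gives counts of C positions per H3K4me1 peak, and its RRBS reads, the authors' estimated counts, were not used.

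Positions were joined into clusters where gaps were at most 100 bases, with Python 3.11.15, pandas 2.3.3 and scipy 1.17.1. Scaffold spans are the highest coordinate in any list used. Clusters were compared by shares with exact 95% binomial intervals and by the spread over scaffolds. Clustering and overlap were checked on simulated data. Members, lists and named clusters followed rules chosen with earlier results of these data known. The named clusters are the 8 with the most positions, and further sets of 5 each. These have the highest or lowest depth, the highest or lowest level, or the most positions outside H3K4me1 peaks. The last set has the most positions inside such peaks, with no listed TSS within 10000 bases. Gene lists could not be applied, as no gene identifier matched a symbol.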

Additional observations from a re-analysis of the deposited data

How the results depend on the processing

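No direction reversed among 54 values from 15 alternatives, 2 of them added after seeing the data. Of these, 14 lay within the interval of the reported value and 40 outside it, where intervals over many clusters are narrow. The share of positions in dense clusters, 2.54%, was 14.5% with dense from 10 positions, 0.187% from 40, 1.15% with gaps up to 50 bases, 5.04% up to 200 bases, 0.813% with at least 20 reads, 0.559% with positions 1 base apart counted once and 2.48% without clusters over 100 reads at the median. The H3K4me1 difference, 17.8 points, was 12.1 and 25.4 points with dense from 10 and 40 positions, 21.1 with overlap by any base, 20.2 with higher-scoring peaks (score from 57.5), 10.04 at widths over 100 and up to 300 bases, 25.3 with at least 20 reads and 23.4 with pairs counted once. The Pol II difference, 8.64 points, was 2.88 and 31.4 with dense from 10 and 40 positions, 11.4 with overlap by any base, 7.38 with higher-scoring peaks (score from 3.396), 7.17 without deep clusters, 11.2 and 5.02 with gaps up to 50 and 200 bases, 24.8 with at least 20 reads and 16.1 with pairs counted once. The TSS difference, 15.1 points, was 6.93 and 23.9 with dense from 10 and 40 positions and 11.3 and 17.9 within 500 and 2000 bases. It was 20.4 and 11.1 with gaps up to 50 and 200 bases, 18.4 with at least 20 reads and 21.8 with pairs counted once. Over clusters in peaks with a listed distance only, it was 17.1 by that distance. By midpoint, the same clusters were near a TSS in 24.8% of dense and 4.70% of sparse cases. The level difference, -31.0 points, was -22.2 with dense from 10 positions, -36.1 and -25.5 with gaps up to 50 and 200 bases. The ratio of median reads, 1.12, was 1.47 with dense from 40 positions, 1.18 and 1.06 with gaps up to 50 and 200 bases, 1.31 with at least 20 reads and 1.06 with pairs counted once. The cause was not tested. No paired analysis was possible because the deposited values pool the animals, and for the same reason no replicate could be left out. The minimum of 10 reads limits the levels of single sites.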

Other observations

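Levels at the ends of the scale went with the read number of a site. Exactly 0% or 100% in RRBS was listed for 48.03% of the 62732 shared sites with 10 to 14 reads, for 36.3% of those with 15 to 24 reads, for 24.8% of those with 25 to 49 reads and for 12.6% of the 10605 sites with 50 or more. Mean levels of the same groups were 52.4%, 53.6%, 56.3% and 55.8%, a far smaller spread. In dense clusters 51.6% of the sites were at exactly 0% or 100%, against 36.0% in sparse clusters, at a median of 21 and 17 reads. Among the 805 sites of dense clusters with a median over 100 reads the share was 2.86%.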
